A study of Mus musculus with 22 samples.

Results

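Interneurons of the mouse forebrain release GABA, the main inhibitory transmitter of the brain, and differ by the peptides and calcium-binding proteins they make. GABA is made from glutamate by glutamate decarboxylase, which the genes Gad1 and Gad2 encode, and is loaded into synaptic vesicles by the transporter encoded by Slc32a1. Parvalbumin (Pvalb) and somatostatin (Sst) mark the main interneuron classes of the cortex that arise in the medial ganglionic eminence, where the transcription factor Lhx6 directs their development, whereas Vip marks a class from the caudal ganglionic eminence. Npy, Cck and Reln mark further subsets. Several of these genes are also active outside interneurons: Pvalb in Purkinje cells of the cerebellum, Cck in cortical pyramidal cells and Reln in cerebellar granule cells.

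These 10 genes were looked up by symbol in the count tables of total RNA from the right brain hemisphere, and all 10 were found among the 24421 genes and passed the filter on low counts. The mice were 22 C57BL/6JOlaHsd animals (written C57B6/J OlaHsd in the labels), an inbred strain, and the labels name no altered allele and no drug. When 10 to 12 weeks old they were ranked by the tube test, where the mouse pushed backwards out of a narrow tube is the loser. The male groups held 7 mice of each rank, dominant and submissive, and the female groups 4 of each, with 1 dominant and 1 submissive mouse from each cage of 4, killed together a few days after ranking. Mice of 1 replicate number shared a cage according to their library names, although females 3 and 4 carry group labels there. According to the methods, female intermediates were regrouped and ranked a second time, and whether the females with group labels are such mice is not stated, so the female cages may be of mixed origin. Males and females stand in separate tables, and their library names begin differently (um_endres for males, jgu_gerber for females). What these beginnings stand for is not stated, so sex cannot be told apart from other differences between these sets of libraries.

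Between 12403943 and 16488762 reads per mouse were counted on genes. Hemisphere tissue was checked with marker lists. Slc17a7 of cortical excitatory neurons lay between 389 and 533 CPM in the 22 mice, and Drd1 of striatal projection neurons between 52.9 and 72.4 CPM. CPM are read counts divided by library size, after TMM scaling over all mice. Slc17a7 was in every mouse the larger part of the summed 8 cortical and hippocampal excitatory neuron markers used below (634 to 831 CPM). Dominant male 1 stood apart in the cerebellar markers. It had 0 reads of the Purkinje cell gene Pcp2, which allows up to 3 reads for counting error, against 20.0 to 46.4 CPM in the other males, and its summed CPM of 6 cerebellar granule cell markers was 53.9, against 307 to 726. For the interneuron genes, a part of the results is therefore also given without this mouse or its cage. The further genes of the GABA system were fitted on all mice only. In tissue of this kind, fewer cells of a type and less RNA per cell cannot be told apart.

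Peptide genes of neurons are known for control by cyclic AMP, through the sequence TGACGTCA or its shorter form TGACG. The 100 bases before the transcription start of the 4 peptide genes are shown, since Sst, Cck, Vip and Npy moved together among the males. Capitals mark TGACG or its reverse complement CGTCA, which overlap within TGACGTCA. The sequences are from RefSeq on GRCm38.p6, each read 5′ to 3′ on the gene's strand. They lie at chr16:23890845-23890944 (minus) for Sst, chr10:5639118-5639217 (plus) for Vip, chr9:121495695-121495794 (minus) for Cck and chr6:49822610-49822709 (plus) for Npy.

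Sst: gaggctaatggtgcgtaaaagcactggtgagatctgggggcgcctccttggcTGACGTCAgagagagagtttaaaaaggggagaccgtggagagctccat

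Vip: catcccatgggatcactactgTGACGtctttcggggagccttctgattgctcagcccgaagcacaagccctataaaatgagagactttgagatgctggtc

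Cck: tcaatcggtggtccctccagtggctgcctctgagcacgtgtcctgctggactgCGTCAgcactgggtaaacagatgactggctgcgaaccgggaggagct

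Npy: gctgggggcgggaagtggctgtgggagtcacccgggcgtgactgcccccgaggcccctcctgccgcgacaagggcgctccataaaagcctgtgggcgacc

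The full 8 letters TGACGTCA stood in the Sst window, from position -48 to -41 before the start, and in none of the other 9 genes' windows. On either strand they occurred in 379 of the 32851 windows of the same length before RefSeq starts. On either strand TGACG stood before Sst, Vip (position -79), Cck (position -47) and Gad2, so in 4 of the 10 genes. A gene was counted if any of its RefSeq starts had the letters. The share over all single windows was 10.5%, which is a different unit. A match of letters is a description and does not show that a factor binds there.

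The levels of the 10 genes were compared per kilobase of exon (RPKM), over all 22 mice. Pvalb came first at 156 ± 27.7 RPKM (SD, n = 22), followed by Gad1 at 136.7 ± 3.45, Cck at 136.7 ± 11.3 and Sst at 128 ± 11.5. The ranges of these 4 neighbours overlapped, so their order is not firm. Npy was next at 58.4 ± 5.25 RPKM and Gad2 at 38.0 ± 2.86 RPKM, both without overlap with their neighbours in the order. Slc32a1 (20.3 ± 1.55 RPKM), Reln (19.8 ± 3.29) and Vip (19.8 ± 2.13) lay together. The lowest was Lhx6, the only transcription factor of the 10, at 2.03 ± 0.437 RPKM from 53 to 155 reads per mouse, and its relative counting error is therefore the largest. The spread between mice also differed by gene. The highest mouse exceeded the lowest by 1.11-fold for Gad1 but by 2.81-fold for Pvalb and 2.36-fold for Lhx6. No exon base of any of the 10 genes is shared with another gene in the annotation of the tables.

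**Figure D1:**
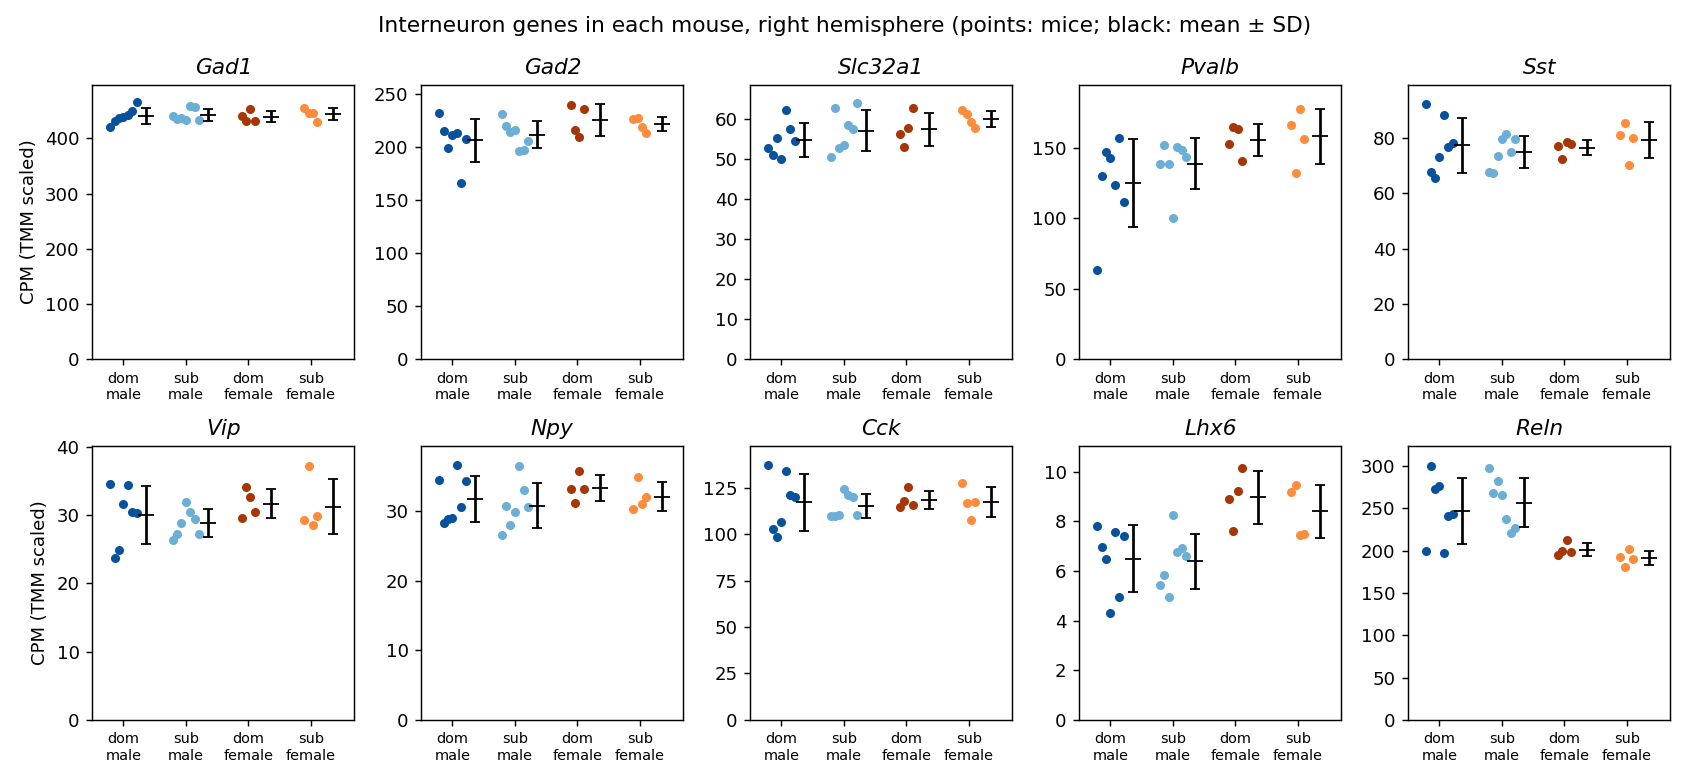
CPM (y axis, from 0) of the 10 genes in each of the 22 mice, by group on the x axis (dom, dominant; sub, submissive); points are mice, and black bars give the mean and SD of 7 males or 4 females per rank. Gad1 stays between 420 and 467 CPM in all mice, Pvalb reaches down to 63.2 CPM in dominant male 1, and Reln is lower and Lhx6 higher in most females than in most males.

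The first comparison asked whether social rank goes with the level of these genes. No gene of the 10 passed the test in either sex. With edgeR's quasi-likelihood test over all genes, 0 of 10 had an adjusted p under 0.05 in males, where 0 of 14737 genes did (0%), and 0 of 10 in females, where 14 of 14865 did (0.0942%). At an unadjusted p under 0.05 the counts were also 0 of 10 in each sex, against 1.32% of all genes in males and 10.5% in females. DESeq2 likewise called 0 of 10 in males and 0 of 7 in females, where it gave no adjusted p for Vip, Npy and Lhx6. The median log2 fold change of dominant over submissive mice over the 10 genes was 0.0093 in males and 0.011 in females, beside -0.0015 and -0.0020 over all genes tested.

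Among the genes of GABA synthesis and vesicle loading, Gad1 had the narrowest spread between mice. Gad1 (chr2:70562164-70602012 of mm10, plus strand) ran from 420 to 467 CPM in dominant males (median 439) and from 434 to 459 in submissive males (median 438). The 4 dominant females had 432 to 452 CPM and the 4 submissive females 429 to 454 CPM. The ranks overlapped in both sexes, with a log2 fold change of -0.0056 (SE 0.030) in males and -0.023 (SE 0.029) in females. Gad2 (chr2:22622327-22693877, plus strand) had 166 to 232 CPM in dominant males (median 211) and 196 to 231 in submissive males (median 214). The lowest value belonged to dominant male 6. The dominant females had 239.6, 216, 209 and 235 CPM of Gad2 and the submissive females 226, 227, 219 and 213 CPM. Both sexes overlapped, with log2 fold changes of -0.036 (SE 0.059) in males and 0.019 (SE 0.040) in females. Slc32a1 (chr2:158610758-158615747, plus strand) was the synthesis or loading gene with the larger differences, -0.061 (SE 0.059) in males and -0.073 (SE 0.048) in females, neither past the test.

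Pvalb (chr15:78191118-78206351, minus strand) encodes a calcium buffer of fast-spiking cells and had the largest rank difference of the 10 in males. Dominant males ran from 63.2 to 157 CPM with a median of 129.6, and submissive males from 99.8 to 152 CPM with a median of 144. The groups overlapped, and the log2 fold change was -0.15 (SE 0.14, adjusted p = 1.00 by edgeR). Without dominant male 1 it was -0.038, so most of this difference came from that mouse. In females the 4 dominant mice had 152.6, 164, 164 and 141 CPM and the 4 submissive mice 166, 132, 178 and 156 CPM. These too overlapped (log2 fold change -0.031, SE 0.066).

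Of the genes of other interneuron classes, Sst (chr16:23889581-23890844, minus strand) had 65.6 to 92.3 CPM in dominant males (median 76.8) and 67.2 to 81.5 in submissive males (median 74.9). Its log2 fold change was 0.048 (SE 0.071) in males and -0.060 (SE 0.049) in females. Vip (chr10:5639218-5647614, plus strand), which encodes vasoactive intestinal peptide, ran from 23.8 to 34.5 CPM in the 14 males and from 28.5 to 37.2 CPM in the 8 females. Its log2 fold changes were 0.059 (SE 0.078) and 0.014 (SE 0.074). Npy (chr6:49822729-49829505, plus strand), between 26.6 and 36.7 CPM in all 22 mice, gave 0.044 (SE 0.073) and 0.047 (SE 0.057), and Cck (chr9:121489824-121495694, minus strand), between 98.2 and 137 CPM, gave 0.024 (SE 0.068) and 0.0071 (SE 0.044). Without both mice of male cage 1, the male values of Sst, Npy and Cck were -0.021, -0.0073 and -0.028, so their sign rested on that cage. Vip was 0.0036 without that cage and 0.023 without dominant male 1. Lhx6 (chr2:36081953-36105408, minus strand) gave 0.031 (SE 0.13) in males, or -0.051 without cage 1, and 0.084 (SE 0.11) in females.

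Reln (chr5:21884454-22344705, minus strand) encodes reelin, a secreted protein of the extracellular matrix, and came nearest to a rank difference in females. The dominant females had 195, 200.2, 212 and 198 CPM, and the submissive females of the same 4 cages 193, 181, 202 and 190.6 CPM. The dominant mouse was the higher one in 4 of 4 cages, although the groups overlapped. The summed CPM of 8 cortical and hippocampal excitatory neuron markers was also higher in the dominant female of every cage, at 766 against 742, 731 against 717, 819 against 697 and 831 against 739. The summed cerebellar granule cell markers were higher in the dominant female of 1 of 4 cages. The part of either list in the female rank values was not tested. The log2 fold change was 0.066 (SE 0.037) with an adjusted p of 0.57 by edgeR, and it was -0.00063 once the trend of a library's counts with exon length was taken out. In males it was -0.056 (SE 0.091), and 0.029 without cage 1.

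**Figure D2:**
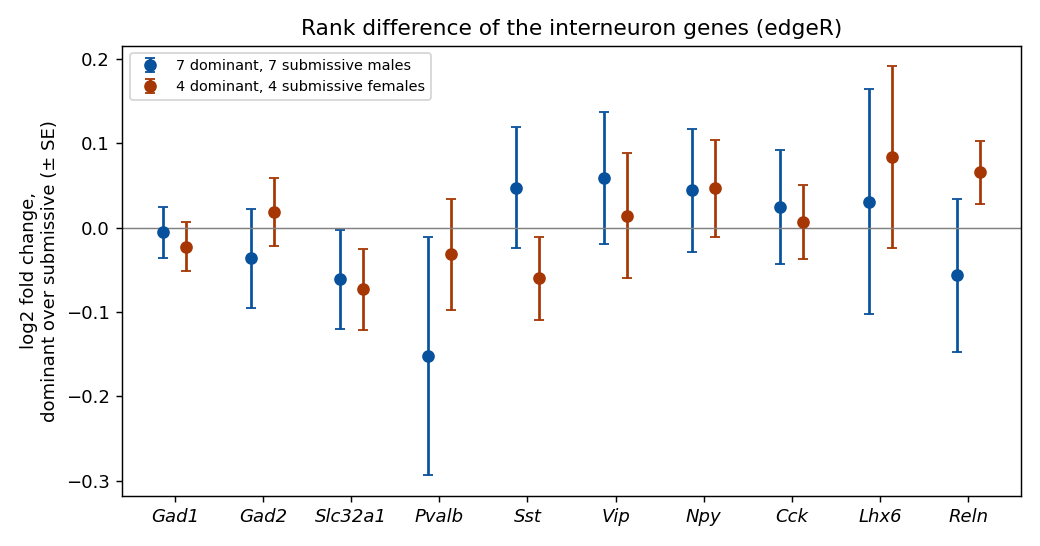
Log2 fold change of dominant over submissive mice (y axis, points with SE bars from edgeR) for each of the 10 genes on the x axis, in 7 and 7 males and in 4 and 4 females. No gene passed the test, and the values run from -0.15 (Pvalb in males) to 0.084 (Lhx6 in females).

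Whether the rank difference itself differed between the tables was tested as an interaction. Of the 10 genes 0 were called (0% of 15233 genes), and 0 had an unadjusted p under 0.05 against 3.32% of all genes. DESeq2 also called 0. The largest interaction values were 0.13 for Reln (SE 0.13) and 0.13 for Pvalb (SE 0.21), on the log2 scale, females minus males.

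The class markers were next set against the GABA synthesis genes of the same mouse, as the log2 ratio of each marker to the sum of Gad1 and Gad2, which does not depend on library scaling. In males the ratio of Pvalb was -2.42 ± 0.463 (SD, n = 7) in dominant and -2.25 ± 0.210 (n = 7) in submissive mice (exact permutation test, two-sided, p = 0.446). The ratio of Sst differed by 0.056 (exact permutation p = 0.489) and that of Vip by 0.063 (exact permutation p = 0.484). Without dominant male 1 the differences of dominant minus submissive males were -0.016 for Pvalb, against -0.17 with it, 0.015 for Sst and 0.029 for Vip. In females the differences were -0.018 for Pvalb, -0.047 for Sst and 0.028 for Vip, with exact permutation p of 0.914, 0.486 and 0.771, where the smallest p the design allows is 0.0286. The dominant female had the higher Sst ratio in 1 of 4 cages (p = 0.500 by exact permutation within cages). The Sst difference was 0.019 with Slc32a1 as the denominator, and -0.10 without submissive female 3 (exact permutation p = 0.0286, not adjusted for the 6 ratios or for the mice left out in turn).

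Beyond rank, Pvalb was low in the mice in which Purkinje cell markers were low. Its level in a mouse went with the summed CPM of 6 Purkinje cell markers. On log2 values, Pearson's r was 0.969 over 14 males and 0.945 over 8 females, with Spearman's rho of 0.938 and 0.833. Leaving out the 2 mice farthest from the median of Pvalb left r = 0.801 in males and 0.763 in females. Dominant male 1 was lowest in both measures, at 63.2 CPM of Pvalb and a Purkinje sum of 260 CPM, against 590 to 940 in the other males. Submissive male 4 followed in both, at 99.8 and 590 CPM. Among the females submissive female 2 was lowest in both, at 132 and 750 CPM. With the summed cerebellar granule cell markers Pvalb had r = 0.903 but rho = 0.455 in males (r = 0.474 without the 2 farthest mice), and r = 0.969 and rho = 0.929 in females. Dominant male 5, second lowest of the males in the granule sum at 307 CPM, had 124 CPM of Pvalb. All points are libraries scaled in 1 way, and the part of Purkinje cells in the Pvalb differences was not tested. Among 15232 other genes, those whose deviations from the group means were most like those of Pvalb were Arhgef33, Calb1 and Homer3, each with a mean r over the sexes of 0.96. Calb1, a calcium buffer, and Homer3, a postsynaptic scaffold, are both abundant in Purkinje cells.

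**Figure D3:**
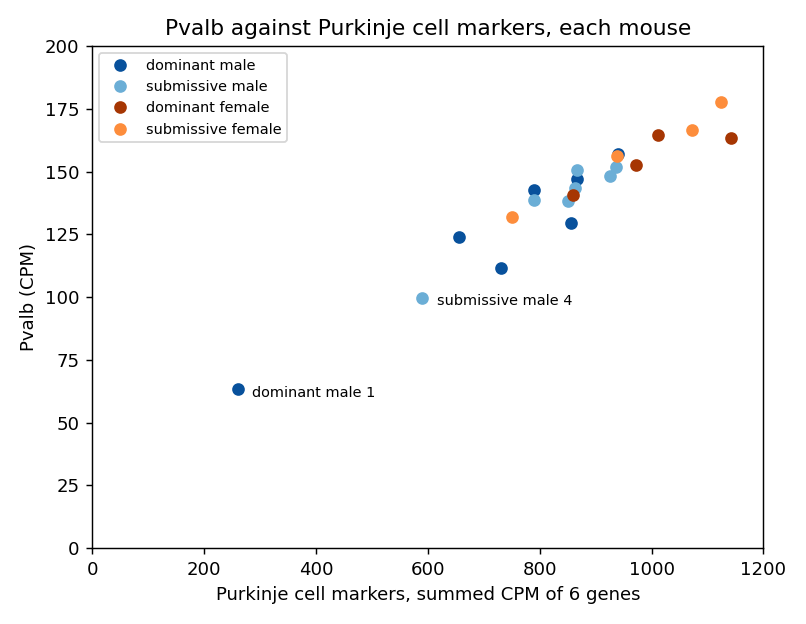
Pvalb (y axis, CPM) against the summed CPM of 6 Purkinje cell markers (x axis) in each of the 22 mice, coloured by rank and sex; each point is 1 mouse. Dominant male 1 (260 and 63.2 CPM) and submissive male 4 (590 and 99.8 CPM) lie at the lower left, and the other mice lie along 1 band in both sexes.

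Cage was compared next, with both cage-mates of each cage and rank in the model. No gene of the 10 passed this test over the 7 male cages (0 of 10, against 5.89% of 14737 genes) or over the 4 female cages (0 of 10, against 0.074%). At an unadjusted p under 0.05 there was 1 of 10 in males (22.3% of all genes) and 1 of 10 in females (5.11%). In males this was Gad2, with an adjusted p of 0.0904 by edgeR and 0.0259 by DESeq2. Its cage means ran from 181 CPM in cage 6 to 232 CPM in cage 1. In females it was Vip, from 29.4 CPM in cage 1 to 35.7 CPM in cage 2 (adjusted p = 0.798 by edgeR).

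Male cage 1 decided this count. Its mice differed by 199.7 against 298 CPM of Reln and by 92.3 against 67.8 CPM of Sst, dominant first. Without it, 3 of 10 genes were called, beside 12.5% of all genes: Reln (adjusted p = 0.00885), Sst (0.0286) and Npy (0.0450, all by edgeR). Reln had 300.0 and 268 CPM in cage 2, 274 and 283 in cage 3 and 277 and 266 in cage 4. It had 197 and 237 CPM in cage 5, 241 and 220 in cage 6 and 243 and 227 in cage 7. The 6 mice of cages 2 to 4 were thus all above the 6 of cages 5 to 7, a split seen in the values and not tested. Npy ran the other way, from 28.1 to 30.8 CPM in cages 2 to 4 and from 30.6 to 36.7 CPM in cages 5 to 7. The summed CPM of 8 cortical and hippocampal excitatory neuron markers lay between 634 and 711 in cages 2 to 4 and between 687 and 800 in cages 5 to 7, so the cages overlapped in the sum, although its defining marker Slc17a7 lay between 389 and 438 CPM in the former and between 466 and 521 CPM in the latter. The summed cerebellar granule cell markers were 53.9 and 677 CPM in cage 1, dominant first. They lay between 419 and 726 CPM in cages 2 to 4 and between 307 and 675 CPM in cages 5 to 7, which overlapped. The part of these markers in the cage values was not tested.

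**Figure D4:**
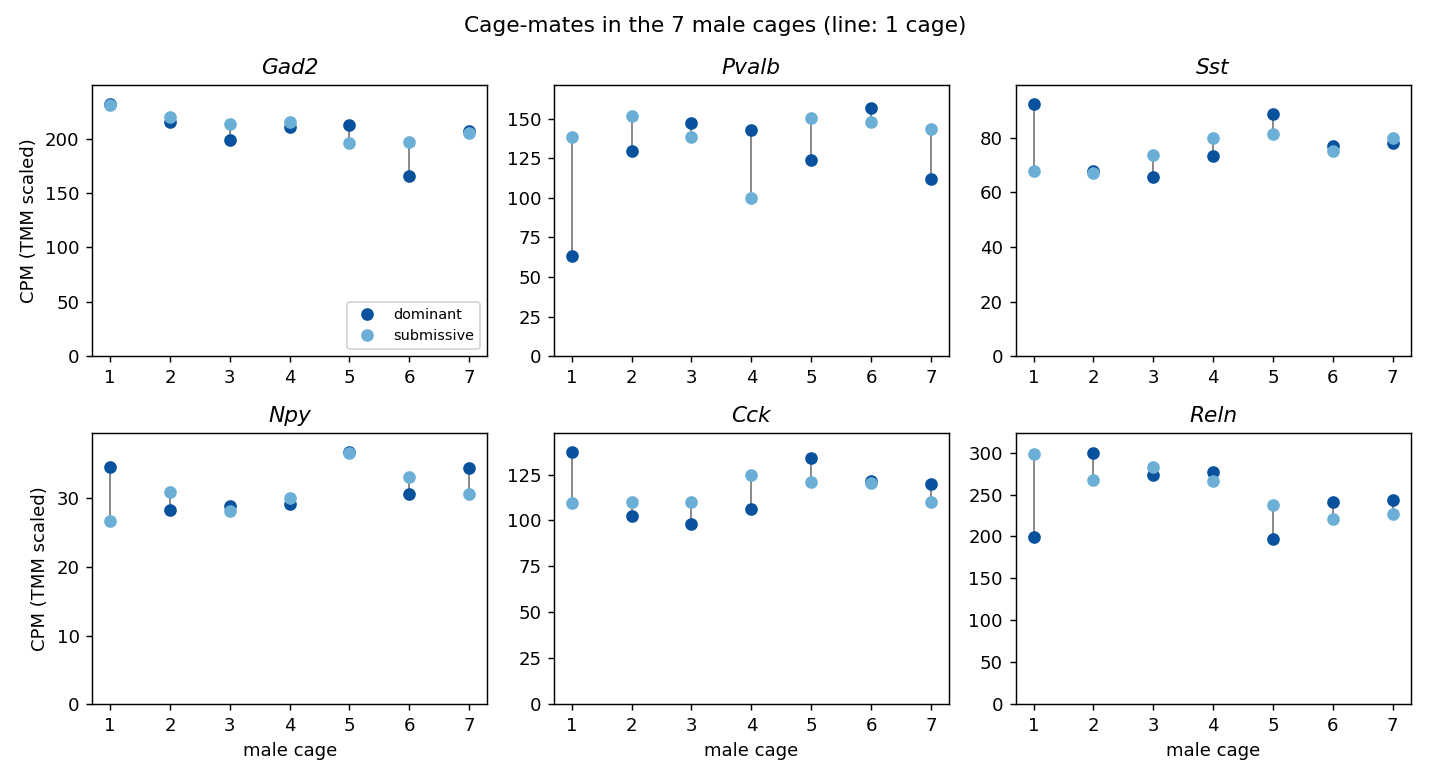
CPM (y axis, from 0) of Gad2, Pvalb, Sst, Npy, Cck and Reln in the dominant and submissive mouse of each of the 7 male cages (x axis); a line joins cage-mates. Cage-mates in cage 1 lie far apart for Pvalb, Sst and Reln, and Reln is lower in cages 5 to 7 than in cages 2 to 4.

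Among the males several of the 10 genes moved together, which is described here without a test and with r taken on log2 values. The levels of Sst and Cck had r = 0.899 and rho = 0.890 over 14 males (r = 0.794 without the 2 farthest mice), and Sst and Vip had r = 0.856 and rho = 0.8286 (0.756). Sst and Npy had r = 0.756 and rho = 0.7099 (0.645). Reln ran against them, with r = -0.851 and rho = -0.780 to Sst (-0.696) and r = -0.850 and rho = -0.881 to Npy (-0.785). The summed CPM of 8 cortical and hippocampal excitatory neuron markers, mostly Slc17a7, moved with them, at r = 0.838 to Sst and -0.863 to Reln in males. In females the same sum had r = 0.178 to Sst and 0.467 to Reln (-0.182 without the 2 farthest mice). Reln also went with the summed cerebellar granule cell markers, at r = 0.676 and rho = 0.802 in males (0.552 without the 2 farthest mice) and r = 0.587 and rho = 0.714 in females (0.187). The part of either list was not tested. Over the 8 females Reln and Sst ran the same way, at r = -0.629 and rho = -0.714 (-0.910 without the 2 farthest mice). Other female values were weaker or unstable, with r = 0.522 for Sst and Cck, 0.412 for Sst and Vip, which turned to -0.776 without the 2 farthest mice, and 0.0587 for Reln and Npy. Gad1 and Gad2, which encode the same enzyme activity, ran against each other in males, at r = -0.531 and rho = -0.604 (-0.647 without the 2 farthest mice). In females they had r = -0.0531 and rho = 0 (-0.685 without the 2 farthest mice).

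The genes most like each of the 10 in their deviations from the group means were looked up in the same way. Sst was most like 6330403A02Rik, Rasal1 and Epha4 (mean r 0.911, 0.898 and 0.896), and Reln most like Etv1 and Fat1 (0.905 and 0.904). Gad2 was most like B230209E15Rik, Dzank1 and Fgf13 (0.91, 0.904 and 0.904), and Lhx6 most like Ptprs, Dos and Cdc42bpb (0.893, 0.893 and 0.889). For Slc32a1 the first was 8430419L09Rik (0.891), for Vip Kcnt2 (0.878), for Npy Fam81a (0.863) and for Cck Cap2 (0.859). Gad1, with its narrow spread, had the lowest first value, 0.791 for Dda1. The closest gene in each case came from a search of 15232 genes, and a high value says nothing of a shared function or control.

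The last comparison set the female table against the male table, and there Lhx6 and Reln differed. They were 2 of 10 genes called, below the 36.2% of 15233 genes that were called in all. Of all genes 18.4% were higher and 17.8% lower in females. The median log2 fold change of females over males was 0.067 over the 10 genes, with 9 of 10 above 0, and -0.00015 over all genes. Cage-mates entered this fit as separate mice.

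Lhx6 was higher in females. Dominant females had 8.89, 7.60, 9.23 and 10.1 CPM and submissive females 9.20, 9.45, 7.43 and 7.51 CPM, against 4.30 to 8.25 CPM in the 14 males (median 6.68). The tables overlapped, with 3 of 8 females below the highest male. The log2 fold change was 0.42 (SE 0.097, adjusted p = 0.00114 by edgeR), and it passed the test in 27 of 27 alternatives, with values from 0.38 to 0.45.

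Reln was lower in females. The 8 females had 181 to 212 CPM (median 197) and the 14 males 197 to 300 CPM (median 255), and only dominant males 1 and 5 lay within the female range. The log2 fold change was -0.36 (SE 0.065, adjusted p = 0.000103 by edgeR). It passed in 27 of 27 alternatives but was only -0.18 with the exon length trend removed (adjusted p = 0.00748). Reln has the longest exon sequence of the 10 genes, 11698 bases. The summed CPM of 5 olfactory bulb neuron markers lay between 18.0 and 28.2 in females and between 19.6 and 37.8 in males. Dominant male 5 had the lowest of the male sums, but dominant male 1, at 24.2, lay above 3 submissive males. Eomes, the defining marker of that list, lay between 1.57 and 3.88 CPM in females, within the male range of 0.497 to 4.81 CPM. Dominant males 1 and 5 had the lowest male values, 0.497 and 1.02 CPM. Submissive male 7 came next at 1.08 CPM, with Reln above the female range at 227 CPM. The summed cerebellar granule cell markers lay between 444 and 696 CPM in females, also within the male range of 53.9 to 726 CPM. The part of these markers in the Reln values was not tested.

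Pvalb was higher in females by 0.25 (SE 0.10), with 132 to 178 CPM in 8 females (median 160) and 63.2 to 157 CPM in 14 males (median 141), and missed the threshold at an adjusted p of 0.0569. It passed without dominant male 1 (0.18, adjusted p = 0.0366) and without male cage 1 (0.18, 0.0457). It also passed without dominant male 6 (0.27, adjusted p = 0.0330) and without submissive female 2 (0.28, 0.0459). These were the only passes among 27 alternatives, where the adjusted p of Pvalb by edgeR or DESeq2 reached up to 0.143. The Purkinje sum lay between 750 and 1143 CPM in females and between 260 and 940 CPM in males, and its part was not tested. Gad2 differed by 0.096 (SE 0.043, adjusted p = 0.0863) and passed at 0.16 with the exon length trend removed (adjusted p = 0.00144) and at 0.11 without male cage 1 (0.0349). Gad2 thus passed in 2 of 27 alternatives, with an adjusted p by edgeR or DESeq2 of up to 0.256. Without male cage 1, 4 of 10 genes were called, beside 34.3% of all genes. Gad1 differed by 0.00045 (SE 0.022), and the remaining 5 genes by 0.021 to 0.098 with adjusted p from 0.230 to 0.783.

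**Figure D5:**
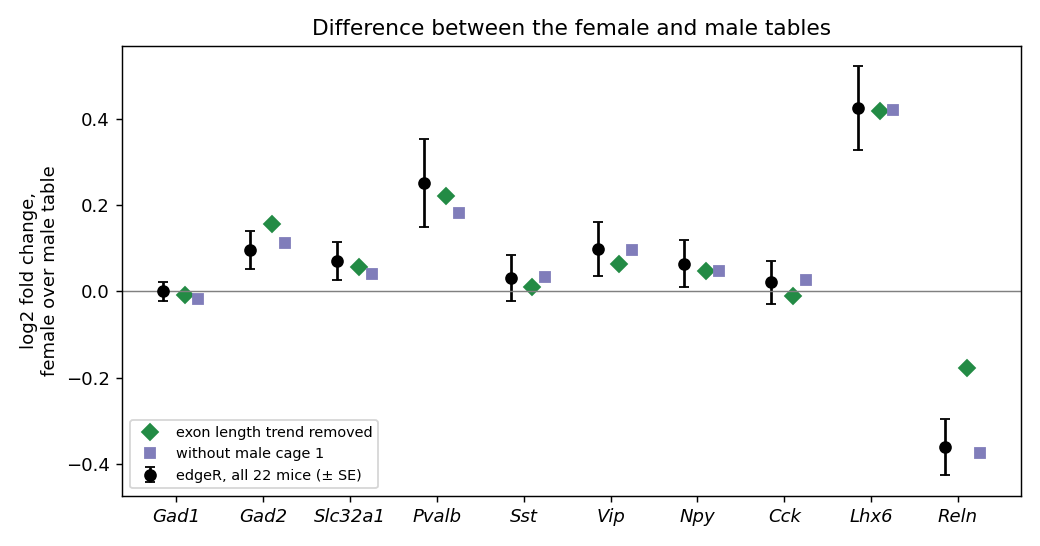
Log2 fold change of the 8 females over the 14 males (y axis) for each of the 10 genes on the x axis; black points with SE bars are from edgeR on all 22 mice, diamonds have the exon length trend of each library removed, and squares leave out male cage 1. Lhx6 stays near 0.42 in all 3, and Reln moves from -0.36 to -0.18 with the length trend removed.

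The wider GABA system was followed with 73 further genes in 6 lists. In the rank comparisons edgeR called 0 of 72 tested genes in males and 0 of 71 in females. At an unadjusted p under 0.05 there were 0 of 72 in males, beside 1.32% of all genes, and 14 of 71 in females, beside 10.5%. DESeq2 called 0 of 72 in males and 1 of 71 in females, and gave 34 of the 71 no adjusted p. Its calls over all genes in females are counted in the section on processing below. Of the 14 genes 5 stood in the list of the inhibitory postsynapse, which has 10 genes. As given beside Reln, the summed cortical and hippocampal excitatory neuron markers were also higher in the dominant female of every cage. The part of these markers was not tested. Nlgn2, an adhesion protein of inhibitory synapses, had 71.0 ± 7.81 CPM in the dominant females and 59.6 ± 4.29 CPM in the submissive ones (SD, n = 4 each), a log2 fold change of 0.25 (SE 0.063, adjusted p = 0.150 by edgeR). It was the gene that DESeq2 called (0.25, adjusted p = 0.0355). Gabbr2, a subunit of the GABA-B receptor, gave 0.11 (SE 0.039, adjusted p = 0.334). In the list of caudal interneuron genes, Calb2 (calretinin) gave -0.18 (SE 0.059, adjusted p = 0.261) and Sncg -0.30 (SE 0.16). Among genes of parvalbumin cells, the potassium channel partner Kcnip2 gave 0.13 (SE 0.047, adjusted p = 0.294) and the channel Kcnc2 0.085 (SE 0.034, adjusted p = 0.373). Nos1, made by a subset of somatostatin cells, gave 0.16 (SE 0.064, adjusted p = 0.375), and Elfn1 of the same list -0.13 (SE 0.078). The lineage genes Dlx6os1 and Sox6 gave 0.15 (SE 0.059) and 0.12 (SE 0.049). The transporter Slc6a11, which takes up GABA into astrocytes, gave -0.12 (SE 0.046, adjusted p = 0.339), and Slc12a5, the neuronal chloride extruder, 0.070 (SE 0.035). In males the smallest p values belonged to Adarb2 (0.098, SE 0.047) and Tac1 (0.099, SE 0.049), both with an adjusted p of 1.00. The other genes with the smallest p of their lists in males were Maf (-0.097, SE 0.073), Pthlh (0.37, SE 0.19), Sncg (-0.27, SE 0.15) and Igf1 (-0.13, SE 0.073). For Calb1 and Cort of the somatostatin list the values were -0.12 (SE 0.12) and -0.12 (SE 0.15), for Gphn of the postsynapse -0.058 (SE 0.038), and for the transporters Slc6a13 and Slc38a1 -0.084 (SE 0.065) and -0.047 (SE 0.045). None passed the test.

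Of these 73 genes 30 were called between the female and the male table, beside the 36.2% of all genes. GABA uptake, breakdown and supply had 7 of 10 called, 3 higher and 4 lower in females. Slc6a11 measured 202 ± 9.14 CPM in the dominant males and 199.9 ± 8.90 CPM in the submissive ones (SD, n = 7 each). The dominant females were at 137 ± 11.7 CPM and the submissive ones at 149 ± 1.24 CPM (n = 4 each), a log2 fold change of -0.49 (SE 0.033, adjusted p = 3.01e-11). Slc12a5 was higher by 0.18 (SE 0.044, adjusted p = 0.00279). Somatostatin cell genes also had 7 of 12 called, with Nos1 lower at -0.26 (SE 0.064) and Calb1 higher by 0.31 (SE 0.088). Calb1 is the gene that went with Pvalb above, and the Purkinje sums were higher in females, a part that was not tested. The list of lineage genes had 5 of 17 called, 1 higher and 4 lower. The lower ones were the transcription factors Sox6 and Maf, the RNA-editing family member Adarb2 and the non-coding RNA Dlx6os1. Of these, Sox6 was at -0.38 (SE 0.059, adjusted p = 1.52e-05 by edgeR), opposite in sign to Lhx6. The other lists had 4 of 12 (parvalbumin cell genes), 4 of 12 (caudal interneuron genes) and 3 of 10 (inhibitory postsynapse) called. In the male cages edgeR called 2 of 72, beside 5.89% of all genes by edgeR. These 2 were Sox6 (adjusted p = 0.00890) and Erbb4, the neuregulin receptor of parvalbumin cells (adjusted p = 0.0166). DESeq2 called 4 of 72 and gave 16 of the 72 no adjusted p. In the female cages both tools called 0 of 71, with 7 at an unadjusted p under 0.05 by edgeR, beside 5.11% of all genes.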

How the data were processed

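Per the labels and methods, the authors prepared stranded libraries after removal of ribosomal RNA, trimmed reads with cutadapt 1.15 and bbduk, checked them with FastQC 0.11.8, aligned them with STAR 2.6.0a (genome mm10) and assigned them to genes with featureCounts 1.6.2 on iGenomes models. What the authors deposited are the resulting raw counts of 24421 genes, not normalized. The strand setting of the counting and the handling of reads with several positions are not given in the sources used here. The number of reads limits the precision of low genes such as Lhx6, and intervals from replicates cover only the spread between these mice.

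From the counts, CPM were computed by TMM scaling in edgeR 4.0.16 under R 4.3.3 over the 15233 genes kept by its expression filter (minimum count 10, minimum total 15) in all 22 mice, and RPKM by dividing by exon length. Rank within each sex, the interaction of rank and table, the difference between the tables and cage with rank were tested with edgeR's quasi-likelihood test, adjusted by Benjamini-Hochberg over all genes at a threshold of 0.05. The SE is the log2 fold change over the square root of F. Ratios were tested by exact permutation over mice. The fits were tested on simulated data. Alternatives were DESeq2 1.42.0, its size factors, no filter, removal, library by library, of a loess trend with exon length (span 0.3), the replicate number as a block, 1 fit for all mice, and leaving out each mouse or cage. Leaving out male cage 1 was added for rank and tables after the data were seen.

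The named genes are the 10 interneuron genes, from each list the 2 of smallest p per rank comparison, and per member the 3 genes of highest mean correlation of log2 CPM (prior count 2) deviations over males and females, of which some are given only by the first. Of the genes this rule names, 2 are not reported here. Genes of the lists named beside the comparison of tables or cages outside this rule, such as Erbb4, were chosen after their values were seen. The members and lists were chosen with earlier results of these data known. Calb1, Calb2, Penk and Sp8 were left out of the marker sums. The lists of thalamic, hypothalamic and olfactory bulb markers had summed levels of 557 to 649, 28.3 to 70.8 and 18.0 to 37.8 CPM and those of striatal projection neurons 585 to 763 CPM over the 22 mice.

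Replicate numbers pair the mice because the library names give mice of 1 number the same cage. Across genes, the deviations of same-numbered mice correlated on average at 0.157 in males (other pairs -0.0261) and 0.0211 in females (other pairs -0.00703). The 54 pairs of libraries within groups all differed by more than sampling noise (mean chi-square per gene 1.80 to 16.1).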

Additional observations from a re-analysis of the deposited data

Results flagged for a closer look

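A check for single mice far from the rest of their group, run on 40 groups of 4 or 7 mice (10 genes in 4 groups), marked 2 values, and chance alone marks about 1 group in 20. Pvalb in submissive male 4 was the lowest of its group at 99.8 CPM, with a gap to the next mouse that took a share of 0.743 of the group's range. The summed Purkinje cell markers of that mouse were 590 CPM and its summed granule cell markers 419 CPM, each the lowest of the 7 submissive males. Their part was not tested. Vip in submissive female 2 was the highest of its group at 37.2 CPM, with a gap of 0.836 of the range, and the other 3 submissive females had 28.5 to 29.9 CPM. The same mouse had the lowest Pvalb of the 8 females, 132 CPM, and the lowest Reln, 181 CPM.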

How the results depend on the processing

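No rank comparison called any of the 10 genes under any alternative run (22 in males, 15 in females, 28 for the interaction), the replicate block included, under which the male value of Pvalb was -0.18 and the counts of called members were 0 in both sexes. Over all genes, 14 of 14865 were called in females, and 77 with DESeq2 on the same genes. The count was 84 without the filter, 36 with the replicate block and 8 with the block and the exon length trend removed. It was 0 with the length trend removed or with all 22 mice in 1 fit. The replicate block changed no call of the 10 genes. Lhx6 and Reln kept their direction and their side of the threshold between the tables in 27 of 27 alternatives. The count of members called between the tables was 2, beside 36.2% of all genes, and 4 without both mice of male cage 1, beside 34.3%. For cage in males it was 0, beside 5.89% of all genes, then 1 with DESeq2, and 0 to 3 when each cage was left out. The 3 were called without cage 1, where 12.5% of all genes were called. The cause of these changes was not tested.

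Signs of small log2 values turned as follows. For rank in males, without both mice of male cage 1, the values were 0.0052 for Gad1, -0.021 for Sst, -0.0073 for Npy, -0.028 for Cck, -0.051 for Lhx6 and 0.029 for Reln. Gad1 was 0.0020 with the exon length trend removed and 0.0018 with the block added. For rank in females with the length trend removed, Gad2 was -0.0063, Pvalb 0.0094 and Reln -0.00063, and with the block added -0.0077, 0.013 and -0.00037. The interaction of Cck was 0.028 and 0.036 under the same settings. Between the tables Gad1 was -0.0034 with DESeq2, -0.0032 with its size factors, -0.0075 with the length trend removed and -0.017 without male cage 1, and Cck was -0.0100 with the length trend removed. With Slc32a1 as the denominator, the female ratio differences were 0.048 for Pvalb and 0.019 for Sst.

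Leaving out each mouse gave these ranges. Rank in males ran from -0.019 to 0.0059 for Gad1, -0.067 to 0.011 for Gad2, -0.017 to 0.063 for Cck and -0.021 to 0.105 for Lhx6. Rank in females ran from -0.014 to 0.054 for Gad2, -0.11 to 0.030 for Pvalb, -0.028 to 0.107 for Vip and -0.030 to 0.048 for Cck. The interaction ran from -0.025 to 0.0038 for Gad1, -0.049 to 0.033 for Slc32a1, -0.088 to 0.058 for Vip, -0.035 to 0.054 for Npy, -0.048 to 0.033 for Cck and -0.014 to 0.13 for Lhx6. Between the tables it was -0.017 to -0.0015 for Gad1 and -0.0100 to 0.031 for Cck. The male ratio differences ran from -0.25 to -0.016 for Pvalb, 0.015 to 0.091 for Sst and 0.029 to 0.12 for Vip, the value nearest 0 being without dominant male 1 for all 3. The female ratio differences ran from -0.11 to 0.041 for Pvalb, -0.104 to -0.015 for Sst (without submissive female 3 at the low end) and -0.021 to 0.11 for Vip. Depth limited Lhx6 most, with 53 to 155 reads per mouse.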
